A study of Homo sapiens with 6 samples.

Results

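The 9 genes described here copy, write and erase DNA methylation in human cells: UHRF1, UHRF2, DNMT1 and HELLS for maintenance, DNMT3A and DNMT3B for de novo methylation, and TET1, TET2 and TET3 for removal. They were chosen by symbol, with results of these libraries already known (UHRF1 was known to be among the genes with the lowest fold changes), and all 9 had a row among the 35840 genes of the deposited expression table. The study treated the human liver cancer line Huh-7 with metformin, a biguanide taken against type 2 diabetes, to examine its effect on the transcriptome. The metformin group (replicates 1 to 3) received the drug for 48 h, at 20 mM per the methods, and the control group (replicates 4 to 6) received none, with 3 RNA libraries in each. The text of the study is not uniform on the dose, and the sample labels give none. Cells of both groups had been starved before the treatment, per the methods, and the RNA was pooled from cells. Values are FPKM, the fragments of a gene scaled to its exon length and to the library total, so levels of different genes can be set side by side per length.

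DNA methylation is a mark on cytosines of CpG sites. When DNA is copied the new strand lacks the mark, UHRF1 binds sites marked on the parental strand alone, and DNMT1 is recruited to restore it, while HELLS, a chromatin remodeler, opens nucleosomal DNA for this work. DNMT3A and DNMT3B set the mark on unmethylated DNA, and the TET dioxygenases oxidize it as a first step of its removal. In hepatocellular carcinoma, UHRF1 and DNMT1 are known to be overexpressed in many tumors.

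The library totals were 17241997 to 18464783 fragments in the metformin group and 17192221 to 17835152 in the control group, and 1 fragment in a gene of 1 kb was worth 0.0542 to 0.0582 FPKM. All 9 hepatocyte and hepatoma markers examined, ALB and AFP among them, reached 1 FPKM, and their summed level was 1260 to 1449 FPKM in the metformin group and 2470 to 2607 FPKM in the control group. No endothelial or leukocyte marker (0 of 6) reached 1 FPKM, and CD68 was at 0 in all libraries. Of the 4 fibroblast and stellate markers, LUM and COL1A1 reached 1 FPKM, and the list summed to 34.9 to 47.1 FPKM in the metformin group and 101 to 113 FPKM in the control group; their part in the results was not tested. Over the 13094 genes whose mean reached 1 FPKM in 1 group or both, limma on log2(FPKM + 1) gave 5781 genes lower (44.1%) and 3784 higher (28.9%) in the metformin group at an adjusted p under 0.05, and the median log2 fold change was -0.14. With TMM factors between libraries, these numbers were 4091 lower and 5595 higher, with median-of-ratios factors 4357 lower and 5291 higher, and with quantile normalization 4778 lower and 4559 higher, and the 3 scalings raised the median by 0.23, 0.20 and 0.11. Whether each library is a separate culture is not stated, so p-values measure the spread between these libraries, which may be technical.

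Of the 9 genes, all of which passed the minimum level, 5 passed this test as lower (UHRF1, DNMT1, HELLS, DNMT3B and TET2) and 3 as higher (UHRF2, TET1 and TET3), while DNMT3A did not pass. Over all genes tested these shares were 44.1% for lower and 28.9% for higher. The groups did not overlap in these 8 genes, beside 46% of all genes tested without overlap on the lower side and 30.7% on the higher side. UHRF1, HELLS and DNMT3B also had an absolute log2 fold change above 1, as did 10.7% of all genes tested on the lower side and 4.88% on the higher side, where none of the 9 was found. Because the genes were picked with this contrast known, their values are given as a description, without p-values. The lists of other genes further below were also chosen with earlier results of these data known. The adjusted p-values printed for their genes are thus a description too, and not independent support. The median log2 fold change of the 9 genes was -0.42. UHRF1, DNMT3B and TET2 reached the minimum level in the control group alone, with metformin means of 0.702, 0.913 and 0.972 FPKM. For these genes, passing the minimum level and lying on the lower side are not independent. The same limit holds for genes named further below that reached the minimum level in the control group alone, such as RRM2 and D2HGDH. MBD5, MAT1A and CDKN1C reached it in the metformin group alone, so for them passing and lying on the higher side are not independent. In bulk RNA, fewer cells of a kind, such as cells in S phase, and less RNA per cell cannot be told apart.

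UHRF1 and HELLS had the lowest levels relative to the control group within the maintenance genes, so the start regions of these genes are shown first, beside DNMT1 and the UHRF1 paralog UHRF2. The sequences are RefSeq windows (GRCh38.p14) of 250 bases before to 50 after an annotated start, 5′ to 3′ on the strand of the gene, and capitals mark the letters searched for E2F, the transcription factors of the G1/S transition: TTTCCCGC, TTTCGCGC, TTTGCCGC or TTTGGCGC, on either strand. The UHRF1 window (the most upstream of 3) lies at chr19:4909251-4909550 on the plus strand, the HELLS window at chr10:94545538-94545837 on the plus strand, the DNMT1 window at chr19:10194904-10195203 on the minus strand and the UHRF2 window at chr9:6412949-6413248 on the plus strand.
UHRF1: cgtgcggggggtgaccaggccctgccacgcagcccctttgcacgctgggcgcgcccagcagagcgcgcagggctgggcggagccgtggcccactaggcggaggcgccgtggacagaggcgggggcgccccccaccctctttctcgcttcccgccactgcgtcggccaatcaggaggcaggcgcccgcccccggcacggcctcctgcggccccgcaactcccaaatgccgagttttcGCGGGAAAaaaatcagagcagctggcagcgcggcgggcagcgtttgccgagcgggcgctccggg
HELLS: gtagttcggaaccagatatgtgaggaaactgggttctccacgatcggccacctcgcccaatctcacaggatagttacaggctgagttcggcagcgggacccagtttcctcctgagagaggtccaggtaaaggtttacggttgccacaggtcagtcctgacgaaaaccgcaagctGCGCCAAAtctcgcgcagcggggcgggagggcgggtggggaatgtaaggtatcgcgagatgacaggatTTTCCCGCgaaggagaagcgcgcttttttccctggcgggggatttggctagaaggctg
DNMT1: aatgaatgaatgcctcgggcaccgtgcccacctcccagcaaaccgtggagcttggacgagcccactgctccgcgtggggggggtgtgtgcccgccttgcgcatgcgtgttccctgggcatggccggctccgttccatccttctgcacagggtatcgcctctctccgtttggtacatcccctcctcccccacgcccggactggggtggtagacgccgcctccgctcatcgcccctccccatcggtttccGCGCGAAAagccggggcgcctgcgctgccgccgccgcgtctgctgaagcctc
UHRF2: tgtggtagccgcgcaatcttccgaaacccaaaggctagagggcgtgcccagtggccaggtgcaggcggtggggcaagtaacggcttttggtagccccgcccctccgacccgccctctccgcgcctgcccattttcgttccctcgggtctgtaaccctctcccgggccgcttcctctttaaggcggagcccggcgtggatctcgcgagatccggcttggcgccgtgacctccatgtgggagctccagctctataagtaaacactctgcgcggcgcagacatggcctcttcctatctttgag

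In the UHRF1 window the match was TTTCCCGC on the opposite strand, from -14 to -7, where -1 is the last base before the start. HELLS held TTTCCCGC from -8 to -1 and TTTGGCGC on the opposite strand from -76 to -69, and in DNMT1 TTTCGCGC on the opposite strand spanned the start, from -2 to 6. A further UHRF1 window, which starts at base 4909894, held TTTCGCGC from -160 to -153. All 9 genes had RefSeq windows, and the other 6 genes (UHRF2, DNMT3A, DNMT3B, TET1, TET2 and TET3) held none of these letters in theirs. The DNMT3B window starts at base 32779602 of chromosome 20 and thus lies inside the gene as GENCODE annotates it (32762385 to 32809359). The windows of UHRF1, DNMT1 and HELLS also lie inside their genes as GENCODE annotates them, so the outermost annotated starts of these 4 genes were not searched. Among all 35116 windows 3.31% held an E2F match, and 5.01% of the 13486 windows of genes tested here did. A match of letters is a description of the sequence, and it does not show that a factor binds there.

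Other letters searched in the same windows were the CHR element of cell cycle genes (TTTGAA), the CCAAT box (CCAAT), the GC box (GGGCGG) and the E-box bound by MYC (CACGTG). None of the E2F matches above overlapped a match of these. The CCAAT box was present in windows of UHRF1, HELLS, DNMT3B, TET1 and TET3 (34.6% of all windows and 34.9% of those of genes tested) and the GC box in windows of UHRF1, UHRF2, HELLS, DNMT3A, TET2 and TET3 (45.0% of all windows and 66.3% of those of genes tested). The CHR letters were present in DNMT3A and TET2 (15.2% of all windows and 10.7% of those of genes tested). The E-box was found in DNMT3A, TET2 and TET3 (7.26% of all windows and 9.50% of those of genes tested). Genes with more annotated starts, such as DNMT3A with 6 windows, had more sequence searched than those with 1. The shares given here and for E2F are of windows and not of genes, so the number of genes with a match cannot be set against them directly.

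UHRF1 (ENSG00000276043, chromosome 19, 4903080 to 4962154, plus strand, positions of all genes from GENCODE on GRCh38) had 0.820, 0.632 and 0.654 FPKM in metformin replicates 1 to 3, against 16.4, 16.7 and 17.3 FPKM in control replicates 4 to 6. All 3 metformin libraries lay far below the control libraries, and the mean was 4.18% of that of the control group (0.702 ± 0.103 against 16.8 ± 0.450 FPKM, SD, n = 3 each). These levels rest on 73, 60 and 58 fragments in the metformin group and 1470, 1531 and 1528 in the control group. The log2 fold change was -3.39 (standard error 0.068) on the scale of log2(FPKM + 1), which understates changes of low genes, and the log2 ratio of the mean FPKM was -4.58. On the log2(FPKM + 1) scale UHRF1 ranked 6 from the lowest among the 13094 genes. The coefficient of variation between metformin libraries was 14.7%, where counting alone gives 12.5% at this depth.

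UHRF2, a paralog of UHRF1 with the same domain layout, which is known not to replace UHRF1 in maintenance methylation of mouse cells, was higher in the metformin group. The gene (ENSG00000147854, chromosome 9, 6413151 to 6507054, plus strand) had 6.79, 6.71 and 6.29 FPKM in the metformin libraries, against 3.43, 3.66 and 3.99 FPKM in the control libraries, and the groups did not overlap. Its log2 fold change was 0.70 (standard error 0.069). The ratio of UHRF1 to UHRF2 within a library does not depend on the scaling between libraries. It was 0.121, 0.0941 and 0.104 in the metformin libraries, where UHRF2 had the higher level, and 4.78, 4.56 and 4.33 in the control libraries, where UHRF1 had. The summed FPKM of both genes was 7.30 ± 0.336 in the metformin group and 20.5 ± 0.733 in the control group (SD, n = 3 each).

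DNMT1, the maintenance methyltransferase, was the highest of the 9 genes in every library. The gene (ENSG00000130816, chromosome 19, 10133342 to 10231286, minus strand) had 18.3, 17.1 and 16.5 FPKM in the metformin libraries, against 29.0, 27.6 and 27.1 FPKM in the control libraries, with no overlap between the groups. The log2 fold change was -0.66 (standard error 0.057), and the metformin mean was 62.1% of the control mean. The ratio of UHRF1 to DNMT1 within a library was 0.0404 ± 0.00406 in the metformin group and 0.603 ± 0.0361 in the control group (SD, n = 3 each). In the GENCODE annotation S1PR2, a receptor gene on the same strand, overlaps the DNMT1 gene, and it had 4.55 to 6.36 FPKM in the metformin libraries and 2.23 to 2.77 in the control libraries. The sources do not state how fragments in the shared region were counted.

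HELLS (ENSG00000119969, chromosome 10, 94545329 to 94613905, plus strand) had 2.30, 2.33 and 1.79 FPKM in the metformin libraries, against 7.53, 8.06 and 8.20 FPKM in the control libraries. All metformin libraries lay below all control libraries, with metformin replicate 3 the lowest. The log2 fold change was -1.51 (standard error 0.086), and 313 to 437 fragments in a metformin library stood against 1332 to 1459 in a control library. CDCA7, which recruits HELLS to DNA, was lower as well, with 10.03 ± 0.961 FPKM in the metformin group and 24.6 ± 1.53 FPKM in the control group (log2 fold change -1.22, adjusted p = 1.19e-05 from limma). Its paralog CDCA7L did not pass the test (15.4 ± 2.36 FPKM in the metformin group and 15.4 ± 1.17 FPKM in the control group, log2 fold change -0.0045, adjusted p = 0.973).

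**Figure D1:**
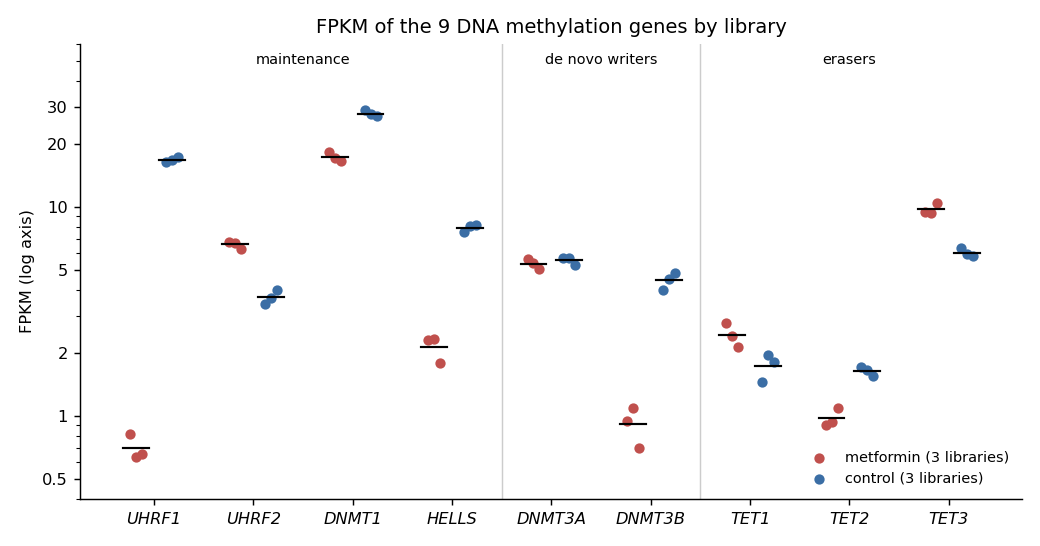
FPKM of the 9 genes on a log axis. Each point is a library (metformin left, control right of each pair), and black lines are group means. The groups overlap in DNMT3A alone, and the widest gap is that of UHRF1, at 0.632 to 0.820 FPKM in metformin libraries and 16.4 to 17.3 FPKM in control libraries.

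Of the de novo methyltransferases, DNMT3B was lower in the metformin group and the groups overlapped in DNMT3A. DNMT3A (ENSG00000119772, chromosome 2, 25227855 to 25342590, minus strand) had 5.64, 5.38 and 5.01 FPKM in the metformin libraries and 5.66, 5.67 and 5.28 FPKM in the control libraries, so that the groups overlapped. Its log2 fold change was -0.04 (standard error 0.065), and it was above 0 with TMM factors (0.20, where it passed the test as higher), median-of-ratios factors (0.16) and quantile normalization (0.069). DNMT3B (ENSG00000088305, chromosome 20, plus strand) had 0.949, 1.09 and 0.701 FPKM in the metformin libraries, against 4.002, 4.53 and 4.82 FPKM in the control libraries, without overlap. Its log2 fold change was -1.51 (standard error 0.10), and the log2 ratio of the mean FPKM was -2.29. The metformin values rest on 76, 93 and 56 fragments, and their coefficient of variation was 21.4%, where counting alone gives 11.5%. DNMT3L, the cofactor of both enzymes in germ cells, had 1 fragment over the metformin libraries and 5 over the control libraries, below the minimum level.

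Within the summed FPKM of the 3 DNMT genes, the share of DNMT1 was 73.5 ± 0.860% in the metformin group and 73.6 ± 1.19% in the control group (SD, n = 3 each), and the groups overlapped. The share of DNMT3B was 3.81, 4.61 and 3.15% in the metformin libraries, against 10.4, 12.0 and 12.98% in the control libraries. The share of DNMT3A was 22.7, 22.8 and 22.5% in the metformin libraries, against 14.7, 15.0 and 14.2% in the control libraries. Both of these shares separated the groups, and the ratio of DNMT3A to DNMT3B was 6.01 ± 1.10 in the metformin group and 1.25 ± 0.160 in the control group. The sum itself was 23.6 ± 1.31 FPKM in the metformin group and 37.9 ± 0.724 FPKM in the control group.

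**Figure D2:**
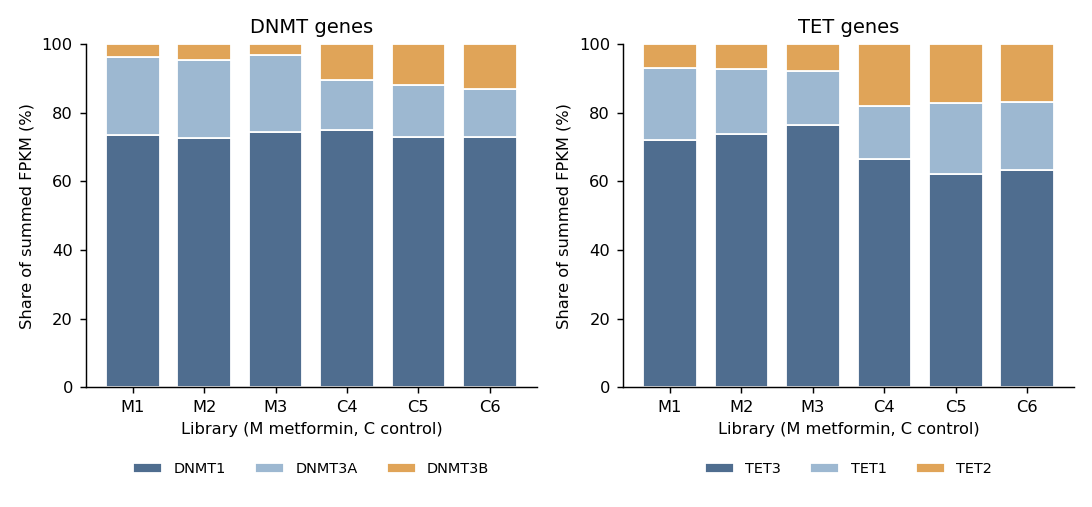
Share of each paralog in the summed FPKM of the DNMT genes (left) and the TET genes (right), in percent, for each library (M metformin, C control). DNMT1 takes 72.6 to 74.98% in every library, while DNMT3B takes 3.15 to 4.61% in metformin libraries and 10.4 to 12.98% in control libraries, and TET2 takes 6.88 to 7.93% in metformin libraries and 16.9 to 18.1% in control libraries.

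TET3 was the highest of the erasers in both groups. The gene (ENSG00000187605, chromosome 2, 73984910 to 74108176, plus strand) had 9.43, 9.33 and 10.5 FPKM in the metformin libraries, against 6.31, 5.93 and 5.79 FPKM in the control libraries, and its log2 fold change was 0.61 (standard error 0.066). All metformin libraries lay above all control libraries, as they did for TET1 (ENSG00000138336, chromosome 10, 68560337 to 68694487, plus strand), with 2.78, 2.40 and 2.12 FPKM in the metformin libraries and 1.46, 1.95 and 1.80 FPKM in the control libraries. The log2 fold change of TET1 was 0.33 (standard error 0.11), and it did not pass the test without a filter on low values (0.33), nor without metformin replicate 1 (0.26), metformin replicate 2 (0.33) or control replicate 4 (0.25).

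TET2 (ENSG00000168769, chromosome 4, 105145875 to 105279816, plus strand), the eraser most often mutated in blood cancers, was lower in the metformin group, with 0.901, 0.930 and 1.08 FPKM in the metformin libraries and 1.72, 1.65 and 1.55 FPKM in the control libraries. Its log2 fold change was -0.42 (standard error 0.084), and with quantile normalization it did not pass the test (-0.13). In the summed FPKM of the TET genes, TET2 held 7.38 ± 0.529% in the metformin group and 17.4 ± 0.601% in the control group (SD, n = 3 each), and TET3 held 74.0 ± 2.33% in the metformin group and 64.0 ± 2.24% in the control group. TET1 held 18.6 ± 2.86% in the metformin group and 18.5 ± 2.76% in the control group, with overlap. The ratio of summed TET to summed DNMT levels was 0.527, 0.537 and 0.614 in the metformin libraries, against 0.246, 0.252 and 0.246 in the control libraries, without overlap. Noncoding genes and pseudogenes that overlap TET1, TET2 or TET3 had at most 4.02 FPKM in a library. The highest was ENSG00000235499, a long noncoding RNA on the same strand as TET3. It had 2.96, 1.67 and 4.02 FPKM in the metformin libraries and 1.62, 1.73 and 0.746 FPKM in the control libraries, with overlap. How fragments in the region shared with TET3 were counted is not stated in the sources.

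**Figure D3:**
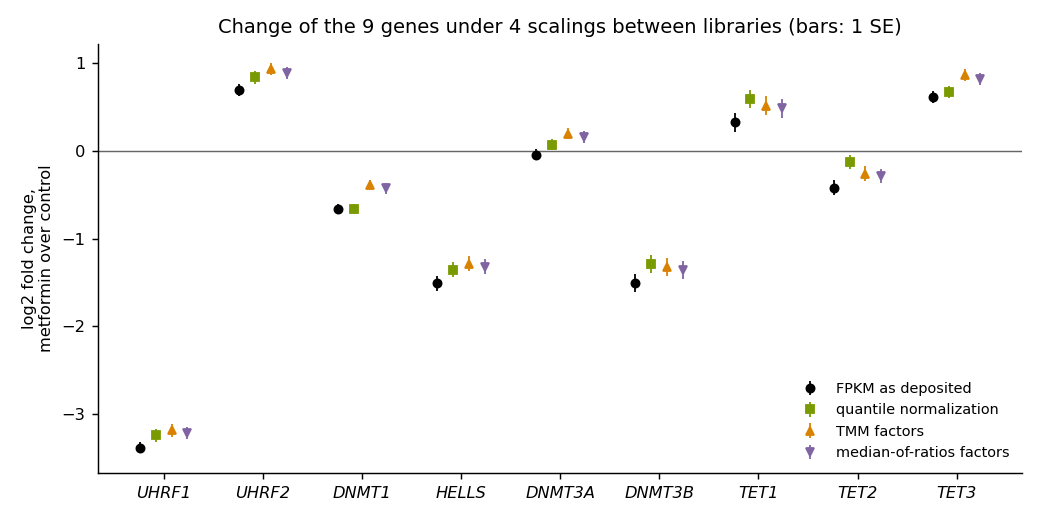
Log2 fold change of the 9 genes, metformin over control, on log2(FPKM + 1), with bars of 1 standard error, for the deposited FPKM and 3 other scalings between libraries. All genes but DNMT3A keep their side of 0, while DNMT3A is at -0.04 with the deposited FPKM and at 0.20 with TMM factors.

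Maintenance methylation acts at replicating DNA, so 31 genes of S phase and replication were set beside the 9 genes. Of these, 30 were lower in the metformin group, 18 of them with a log2 fold change below -1, none was higher and E2F1 did not pass the test (log2 fold change -0.04, adjusted p = 0.447 from limma), against shares of 44.1% lower and 28.9% higher over all genes. With TMM or median-of-ratios factors 26 were lower and 1, E2F1, was higher. Over all genes tested these factors gave 4091 lower and 5595 higher (TMM), and 4357 lower and 5291 higher (median-of-ratios). RRM2, the small subunit of ribonucleotide reductase, reached the minimum level in the control group alone. It fell to 0.718 ± 0.121 FPKM in the metformin group, against 11.6 ± 1.11 FPKM in the control group (mean ± SD of 3 libraries, log2 fold change -2.88, limma adjusted p = 1.28e-06). On this log2(FPKM + 1) scale GINS2 (log2 fold change -2.12) and GINS1 (log2 fold change -2.08), subunits of the replicative helicase, followed. By the log2 ratio of mean FPKM, used below, MCM10 (-2.74) and POLA2 (-2.64) lay between RRM2 (-4.02) and GINS1 (-2.55), with GINS2 at -2.47.

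The geometric mean FPKM of the 31 genes was 5.97, 5.80 and 5.59 in the metformin libraries, against 15.9, 16.2 and 16.8 in the control libraries. Divided by it within each library, UHRF1 was at 0.137, 0.109 and 0.117 in the metformin libraries and at 1.03 in each control library. The mean of this ratio was 8.50-fold lower in the metformin group, and none of the 31 had a lower log2 ratio of mean FPKM than the -4.58 of UHRF1 (lowest RRM2, at -4.02). HELLS and DNMT3B lay within the range of these genes: 11 of the 31 were lower than HELLS (-1.89) and 5 were lower than DNMT3B (-2.29). DNMT1 (-0.69) had 25 of the 31 below it, and its ratio to the geometric mean was 2.99 ± 0.0609 in the metformin group and 1.71 ± 0.103 in the control group (SD, n = 3 each). How far S phase accounts for the levels of the 9 genes was not tested.

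**Figure D4:**
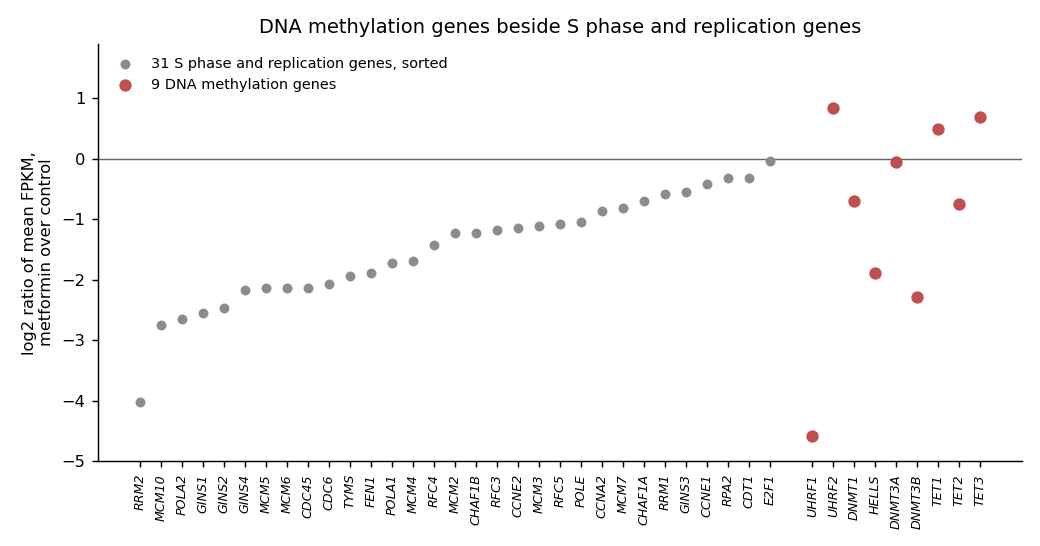
Log2 ratio of the mean FPKM, metformin over control, for 31 S phase and replication genes in order (grey) and the 9 DNA methylation genes (red). UHRF1, at -4.58, lies below all 31 grey points, while UHRF2, TET1 and TET3 lie above 0.

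Partners of the methylation machinery included members on both sides. Of 23 genes on a broad list of methylation partners, not all of which act at the replication fork or guide de novo methylation, 22 could be tested. Of these, 11 passed as lower, 5 as higher and 6 on neither side, beside 44.1% lower and 28.9% higher over all genes tested. With TMM factors 7 were lower and 9 higher, and with median-of-ratios factors 8 were lower and 9 higher. Over all genes tested, TMM factors gave 4091 lower and 5595 higher, and median-of-ratios factors 4357 lower and 5291 higher. PCNA, the sliding clamp to which DNMT1 binds, fell to 29.0 ± 1.11 FPKM in the metformin group, against 157 ± 10.4 FPKM in the control group (log2 fold change -2.39, adjusted p = 7.59e-07 from limma). LIG1, the replicative DNA ligase that UHRF1 binds when it is methylated, fell to 3.84 ± 0.351 FPKM, against 10.8 ± 0.597 FPKM in the control group (log2 fold change -1.29). PCNA, LIG1 and CDCA7 were the members with a log2 fold change below -1 on the log2(FPKM + 1) scale. By the log2 ratio of mean FPKM, PCLAF (-1.98), TRDMT1 (-1.42) and ZNF445 (-1.21), all called lower, were also below -1. USP7, a deubiquitinase that protects UHRF1 and DNMT1, was lower by less (log2 fold change -0.53, adjusted p = 0.000102). The higher members were SETD2, whose histone mark guides DNMT3B (0.65), the histone methyltransferases EHMT1 (0.34), EHMT2 (0.17) and NSD1 (0.13), and CTCF (0.29). With control replicate 5, control replicate 6, metformin replicate 1 or metformin replicate 3 left out, 3 members of this list were higher. The median log2 fold change of the list was -0.20, beside -0.14 over all genes tested.

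Of 14 readers of CpG sites, all tested, 3 were lower (MBD2, MBD4 and ZBTB33), 5 were higher (MBD5, ZBTB4, ZBTB38, CXXC1 and KDM2A) and 6 did not pass, while 44.1% of all genes tested were lower and 28.9% higher. The median log2 fold change was 0.05. ZBTB38, a zinc finger protein that binds methylated DNA, rose to 16.8 ± 3.68 FPKM in the metformin group, against 6.76 ± 0.446 FPKM in the control group (log2 fold change 1.18, adjusted p = 0.000235 from limma), and no other reader had an absolute log2 fold change above 1. MBD2 (-0.50) and ZBTB33 (-0.48), also known as Kaiso, were the next in size. The counts depend on the scaling, with 1 lower and 10 higher under TMM scaling. Median-of-ratios scaling and quantile normalization each gave 3 lower and 8 higher. Over all genes tested, TMM scaling gave 4091 lower and 5595 higher, median-of-ratios scaling 4357 lower and 5291 higher, and quantile normalization 4778 lower and 4559 higher.

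Among 21 genes that support TET proteins or repair the oxidized base, 19 could be tested, of which 10 passed as lower, 4 as higher and 5 on neither side (all genes tested: 44.1% lower, 28.9% higher). With TMM factors 8 were lower and 7 higher, beside 4091 lower and 5595 higher over all genes tested. TDG, the glycosylase that removes the final oxidation products of TET proteins, had 6.40 ± 0.585 FPKM in the metformin group and 7.11 ± 0.544 FPKM in the control group and did not pass (adjusted p = 0.175 from limma). PARP1, which binds DNA breaks, fell to 35.2 ± 0.733 FPKM, against 81.8 ± 2.88 FPKM in the control group (log2 fold change -1.19, adjusted p = 2.30e-06). UNG, a uracil glycosylase (-1.12), and D2HGDH (-1.01), which clears a metabolite that inhibits TET enzymes, were the other members below -1 on the log2(FPKM + 1) scale. By the log2 ratio of mean FPKM, SMUG1 (-1.20), also called lower, was below -1 too. IDH1 (-0.60) and IDH2 (-0.98), which make the cosubstrate of TET proteins in the cytosol and in mitochondria, were also lower. The higher members were APEX1 (0.35), POLB (0.25), DCAF1 (0.31) and CXXC5 (0.80). The median of the list was -0.18.

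Of 13 genes that supply and recycle the methyl donor S-adenosylmethionine, 11 could be tested, of which 6 passed as lower, 3 as higher (MAT1A, AHCY and AHCYL2) and 2 did not pass, with a median log2 fold change of -0.24. Over all genes tested 44.1% were lower and 28.9% higher. With TMM or median-of-ratios factors 4 genes of the list were lower and 3 higher. Over all genes these factors gave 4091 lower and 5595 higher (TMM), and 4357 lower and 5291 higher (median-of-ratios). MAT2A, the S-adenosylmethionine synthetase of proliferating cells, had 8.46 ± 2.60 FPKM in the metformin group and 71.1 ± 0.0715 FPKM in the control group (log2 fold change -2.96, adjusted p = 7.72e-06 from limma). MTR, methionine synthase, fell to 2.68 ± 0.320 FPKM, against 6.77 ± 0.206 FPKM in the control group (log2 fold change -1.08). AHCY, which removes the product inhibitor of methyltransferases, rose to 135 ± 3.91 FPKM, against 106 ± 2.11 FPKM in the control group (log2 fold change 0.34, adjusted p = 0.000272).

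Genes that promoter methylation is known to hold silent were examined as well, although methylation itself was not measured. Of 25 germline genes, 14 had a row in the table and 9 of these lay below the minimum level. The other 5 were already expressed in the control group, with means from 1.99 FPKM (MAGEA3) to 65.3 FPKM (MAGEB2). Genes of the list that were silent in these cells were thus not tested. The 5 that could be tested were lower in the metformin group (median log2 fold change -0.70). Over all genes tested 44.1% were lower and 28.9% higher, with a median of -0.14. On the germline list, 4 genes were lower with TMM factors, median-of-ratios factors, quantile normalization, voom or any library but control replicate 6 left out. XAGE2, a cancer-testis gene, fell to 2.60 ± 0.189 FPKM in the metformin group, against 37.2 ± 1.43 FPKM in the control group (log2 fold change -3.41, adjusted p = 3.48e-07 from limma), followed by MAGEB2 (-0.999) and MAGEA6 (-0.70). XAGE2 and the MAGE genes have near-identical copies, so their values are uncertain. Among the genes below the minimum level, SYCP3 had 5 fragments in the metformin libraries and 32 in the control libraries, and PAGE1 had 4 in the metformin libraries and 0 in the control libraries.

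Of 25 imprinted genes, 21 had a row and 13 could be tested, of which 7 passed as lower, 3 as higher and 3 on neither side, with a median log2 fold change of -0.29. The shares over all genes tested were 44.1% lower and 28.9% higher. With TMM factors 6 were lower and 5 higher, beside 4091 lower and 5595 higher over all genes tested. The growth factor IGF2 (-1.37), the retrotransposon-derived PEG10 (-1.34), MEST (-1.17), BLCAP (-1.01) and the noncoding RNA H19 (-1.20) had log2 fold changes below -1. PEG10 had 46.7 ± 3.54 FPKM in the metformin group and 119.9 ± 6.98 FPKM in the control group (limma adjusted p = 5.61e-06). The higher members were PHLDA2 (0.89), the cell cycle inhibitor CDKN1C (0.80) and the adaptor GRB10 (0.57). H19 and IGF2, which share a methylated control region and are read from opposite parental copies, were both lower, but at unlike levels. H19 had 0.188 FPKM in the metformin group and 1.74 FPKM in the control group, from 28 and 258 fragments in all. It thus reached the minimum level in the control group alone. IGF2 had 21.3 FPKM in the metformin group and 56.5 FPKM in the control group.

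The genes whose pattern over the 6 libraries was most like that of UHRF1, by the Euclidean distance of log2(FPKM + 1) centred on each gene, were XAGE2 (distance 0.0612), FADS2, a fatty acid desaturase (0.243), and SMAD6, an inhibitor of BMP signaling (0.288), out of 6782 protein-coding genes averaging 5 FPKM or more. SMAD6 had 0.539 ± 0.0295 FPKM in the metformin group and 14.0 ± 1.08 FPKM in the control group. The nearest genes to HELLS were THBS1, a matrix glycoprotein (0.0980), CENPM, a centromere protein (0.133), and DOLK, a kinase of glycosylation (0.133). THBS1 (0.118) was also the nearest to DNMT3B, followed by DUT, which removes dUTP before it enters DNA (0.126), and PDZK1 (0.142). The same 6 libraries stand behind every distance, and the distance largely follows the size of the fold change. UHRF1 was at -3.39, XAGE2 at -3.41, FADS2 at -3.27 and SMAD6 at -3.28. A short distance thus shows no link beyond a like fold change, and the values of XAGE2 are uncertain because of its near-identical copies.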

How the data were processed

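RNA of Huh-7 cells was sequenced in 6 libraries. The authors filtered the reads, used GRCh38 and Cufflinks 2.1.1 (aligner: not given in the sources used here), and they deposited FPKM per gene and library. Whole fragments were rebuilt from the steps of the deposited FPKM for 100.0% of the 31777 genes above 0 (tolerance 1e-08). Within groups, libraries differed beyond counting noise (chi-square per gene 4.38 to 13.4, where 1 is noise). Gene IDs were matched to GENCODE 44. Metformin was compared with control on log2(FPKM + 1) by limma 3.58.1 (R 4.3.3, trend on), with a minimum mean of 1 FPKM in either group, two-sided, Benjamini-Hochberg adjustment over 13094 genes, in place of the count-based Cuffdiff test of the study. The fit was tested on simulated data in which a small set of genes changed, as many up as down. Such data do not cover the case found here, where most genes passed the test. Tables used pandas 2.3.3 and numpy 2.4.6 under Python 3.11.15. The 9 genes and 7 lists were chosen with earlier results of these data known. The 3 called protein-coding genes with the largest change per list, and the 3 genes nearest to each of UHRF1, HELLS and DNMT3B, were named by rule, and other list genes were named after their values were seen. Some list genes that the rule names are not reported here. Alternatives were another pseudocount, 2 other filters, 3 scalings, voom on rebuilt fragments, each library left out and a shorter promoter window.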

Additional observations from a re-analysis of the deposited data

How the results depend on the processing

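No paired analysis was possible because the groups share no replicate numbers. Of the 9 genes, 5 were lower under 12 of 13 alternatives (4 with quantile normalization). The number higher was 3, or 4 with TMM factors and 2 with no filter and without control replicate 4 or metformin replicates 1 or 2, and the 3 beyond a log2 fold change of -1 stayed 3. The log2 fold change of UHRF1 ranged from -4.58 (voom) to -3.19 (TMM), and DNMT3A reversed to 0.20 (TMM), 0.16 (median-of-ratios) and 0.069 (quantile). With TMM factors the counts moved to 7 lower and 9 higher for partners, 1 and 10 for readers, 7 higher for the TET pathway, 1 higher for S phase and 5 higher for imprinted genes. Over all genes tested TMM factors gave 4091 lower and 5595 higher. With median-of-ratios factors 9 partners, 8 readers and 1 S phase gene were higher, and with quantile normalization 8 readers. With no filter 1 germline gene was higher. Leaving out a library gave 3 to 4 higher partners. Over all genes, those with an absolute log2 fold change above 1 were 1401 lower and 639 higher, with 2422 and 998 at a pseudocount of 0.1, 3618 and 1165 with voom, 922 and 1162 with TMM, 987 and 858 with quantile normalization and 985 and 1057 with median-of-ratios factors. With protein-coding genes alone 933 were lower, out of 10879 tested. The window without the 50 bases after the start held E2F letters in 2.79% of windows and in UHRF1 and HELLS alone of the 9 genes. The cause of the moves was not tested. Depth limits UHRF1 and DNMT3B most, with under 100 fragments in each metformin library.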
